A study of Rattus norvegicus with 35 samples.

Results

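The transcripts described here are those of the cadherins and protocadherins of the rat olfactory epithelium, measured at 3 ages. Members were the non-control probes whose gene name in the scanner files began with Cdh or Pcdh, ignoring case and the ending _predicted. They numbered 74 of the 41012 non-control probes and read 53 genes, with 30 probes of 19 Cdh genes and 44 probes of 34 Pcdh genes. More than 1 probe was present for 16 genes. The current RefSeq gene was found for 29 probes by accession, for 40 by symbol and for 5 by an older name. Pcdh21 is Cdhr1 in RefSeq. The 53 names of the files stand for 50 RefSeq genes, since Pcdh3 and Pcdhb13 are both matched to Pcdhb12, and Pcdha2, Pcdha4 and Pcdhac2 to Pcdha4. Genes are counted here by the names of the files. Cdh4, Cdh12, Cdh20, Cdh24, Pcdh10 and Pcdh15 are not analysed here.

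All animals were untreated Brown Norway rats. The newborn group held 19 pups of 3 to 5 days from 4 litters, L1 with 4 pups and L2, L3 and L4 with 5 each. One side of the nasal epithelium of each pup was used, and their sex was not known. The adult group held 4 males of 9 weeks, and the old group 4 males of 22 months that had lived in the animal house since 3 weeks of age. The epithelium of the 2 nostrils of each adult and old rat went onto separate arrays, which gave 35 arrays in all, and the 2 arrays of a rat were averaged. Sex and age cannot be told apart between pups and the older groups. In this bulk tissue, fewer cells of a type and less RNA per cell cannot be told apart.

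Cadherins are membrane proteins that bind their own kind, or a close relative, on the neighbouring cell. Classical cadherins anchor this contact to actin through beta- and alpha-catenin. E-cadherin (Cdh1) joins epithelial cells and N-cadherin (Cdh2) is the main form of neurons and mesenchyme, whereas type II cadherins mark subsets of neurons, vessels or mesenchyme. The delta protocadherins are single genes with narrow patterns in the brain. The clustered protocadherins alpha, beta and gamma lie side by side, and each neuron uses a few of them, which gives it an identity at its surface. Olfactory sensory neurons are among the cells in which such cell-by-cell use is known.

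A level is the log2 of a probe's background-subtracted intensity over the median intensity of its array, so that 0 is the array median. Values below 0.01 of the median were set to it, at a level of -6.64. A change is a difference between 2 group means of levels ± its standard error, newborn being the mean of the 4 litter means. It was called at a limma p below 0.01 after Benjamini-Hochberg adjustment over all probes. Levels of different probes were not compared as amounts of transcript. They were used to pick probes by the highest mean level and to sum marker lists, where bright probes weigh most. The 3 age comparisons share their samples, and are described side by side.

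The probes are single stretches of DNA, and the 2 probes of a gene can read different transcripts. The following 60-base probes are shown because they either pair well or point in opposite directions in the results. Positions are given in build rn3, as the scanner files have them, and no gene annotation of that build was used here, so exon or intron is not given. Capitals mark the longest run of at least 14 bases that the probe shares, on either strand, with a probe of another gene on the array.

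Cdh13 A_42_P749820, chr19:49571166-49571225, + strand: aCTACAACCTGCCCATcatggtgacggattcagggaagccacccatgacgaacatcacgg
Cdh13 A_44_P561084, chr19:49579798-49579857, + strand: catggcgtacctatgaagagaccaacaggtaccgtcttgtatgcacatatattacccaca
Cdh22 A_44_P116532, chr6:134126054-134126113, + strand: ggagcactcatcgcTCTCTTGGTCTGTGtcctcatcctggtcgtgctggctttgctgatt
Cdh22 A_44_P454259, chr6:134126921-134126980, + strand: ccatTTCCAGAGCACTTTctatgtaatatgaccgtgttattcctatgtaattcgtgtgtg
Cdh16 A_43_P21893, chr19:287515-287574, + strand: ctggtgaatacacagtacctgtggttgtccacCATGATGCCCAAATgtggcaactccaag
Cdh16 A_44_P302334, chr19:281996-282055, + strand: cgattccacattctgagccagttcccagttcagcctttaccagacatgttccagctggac
Cdh5 A_43_P19735, chr19:788852-790286, - strand: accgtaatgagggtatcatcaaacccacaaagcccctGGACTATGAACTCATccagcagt
Cdh5 A_44_P121658, chr19:779103-779162, - strand: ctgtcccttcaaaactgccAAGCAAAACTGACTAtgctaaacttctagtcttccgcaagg
Pcdh9 A_44_P520441, chr15:76750567-76750626, - strand: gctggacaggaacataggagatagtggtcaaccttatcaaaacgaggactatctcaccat
Pcdh9 A_44_P900530, chr15:75843258-75843317, - strand: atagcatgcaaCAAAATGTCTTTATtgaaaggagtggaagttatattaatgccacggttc

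No probe of 1 member gene shared such a run with a probe of another member gene, the clustered protocadherins included. Of the 74 probes, 48 shared one with some other probe on the array. The longest run, of 24 bases, was that of Cdh1 on the strand opposite to an unnamed transcript. The chromosome in the files was that of the RefSeq gene for 72 probes, and differed for both Cdh22 probes.

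Between 24484 and 28361 probes gave a signal above background on each array. The median intensity lay between 40.17 and 179.2, with all 8 adult arrays at 88.75 or above and all 8 old arrays at 59.83 or below. The adult arrays were scanned on 2 days of their own and read by an earlier version of the software, so adult age and scan day cannot be told apart. L1 and the old rats shared 1 scan day. Over all probes the median change was 0.10 for newborn minus adult, -0.04 for newborn minus old and -0.14 for adult minus old, and centring each array on its 75th percentile brought the 3 medians to 0. That centring lowered the share of calls that were higher in pups than in adult rats from 57.8% to 48.2%, and quantile normalization raised the share higher in adult than in old rats from 35.5% to 51.6%. The marker lists of the tissue moved with age. All 8 measured markers of mature olfactory sensory neurons, such as Omp and Adcy3, were lower in newborn rats in both comparisons (19.7% and 23.1% of all probes). Their summed intensities were 199.7 to 442.4 array medians in pups, 1191 to 1611 in adult rats and 1825 to 2477 in old rats. In adult against old rats, Cnga4 and Stoml3 alone were called, both lower in adult rats (20.8% of all probes). The mean level of Stoml3 was 8.36 in adult and 9.53 in old rats. Cngb1 (0.38 ± 0.22) and Rtp1 (0.28 ± 0.25) went the other way, neither called. Of the 10 markers of immature neurons, 8 were higher in pups than in adult rats (26.9% of all probes) and 9 higher than in old rats (20.2%). Ncam1, also on that list, was lower in pups than in adult rats (-0.81 ± 0.11). The part of these shifts in the values below was not tested.

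A gene transcript counted as expressed when at least 3 arrays of a litter, or 6 of the 8 adult or old arrays, gave a signal above background, as weakly expressed with fewer, and as not expressed with none. Of the 74 probes, 45 (60.8%) were expressed in all 4 litters, in adult and in old rats, beside 57.7% of all probes. Of the litters, L1 expressed 59 probes, L2 51, L3 56 and L4 55, while adult rats expressed 54 and old rats 48. The cut-off was 3 of 4 arrays in L1 and 3 of 5 in the other litters, so these counts are not on equal terms. Of all probes, 27160 to 28361 were above background on an array of L1, 24705 to 26740 of L2 and 24484 to 27500 of L3. The range was 26292 to 27268 for L4, 25273 to 28020 for adult and 25275 to 27426 for old arrays. Neither Cdh9, Cdh19, Pcdh12 nor Pcdhb6 gave a signal above background on any of the 35 arrays. Cdh19 is known from Schwann and olfactory ensheathing cells, and Pcdh12 from endothelium. Of the probes whose status differed, 4 were expressed in adult and not expressed in old rats, namely 1 of the 4 Cdh11 probes, 1 probe each of Cdh16 and Cdh17, and the probe of Pcdhb11. The Cdh5 probe A_43_P19735 was the only one with the opposite pattern.

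Between newborn and adult rats, 9 probes (12.2%) were higher and 21 (28.4%) lower in newborn rats, where 26.9% of all probes were higher and 19.7% lower. With a change of at least 5-fold, 5 probes were higher and 1 lower, beside 2.24% and 1.61% of all probes. Among the 5 were the Cdh5 probe A_43_P19735 and a Cdh8 probe, both above background on no adult array. The 1 lower, a Cdh17 probe, was above background on no newborn array. Between newborn and old rats, 25 probes (33.8%) were higher and 14 (18.9%) lower in newborn rats, where the background was 20.2% and 23.1%. At 5-fold these were 5 and 1, beside 2.9% and 1.81%, the 5 including Cdh7, above background on no old array. Between adult and old rats, 19 probes (25.7%) were higher and 9 (12.2%) lower in adult rats, where the background was 11.5% and 20.8%. With normexp background correction and quantile normalization together these were 23 and 5 probes, and with quantile normalization alone 21 and 8. The background moved too. Of all 40991 tested probes, 6598 were higher and 6054 lower in the first setting. In the second they were 6729 and 6300, in place of 4695 and 8530 in the main fit. At 5-fold, in the main fit, 2 member probes were higher and 3 lower, beside 1.16% and 1.14% of all probes. The 2 were the Cdh17 probes, above background on no old array. The 3 included Pcdhga11 and the Cdh16 probe A_44_P302334, above background on no adult array. The median change of the 74 probes was 0.20, 0.29 and 0.24 in the 3 comparisons. Counted by gene, with the probe of the highest mean level, 7 of 53 were higher and 13 lower in newborn than in adult rats, 17 and 12 in newborn than in old rats, and 12 and 7 in adult than in old rats. No call was made for 14 genes in any comparison. One of the probes called higher in newborn than in old rats, that of Pcdhb6, was above background on no array, so no fold is given for it.

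Of the 4 type I classical cadherins, 2 were higher in pups than in adult rats, 1 was higher in pups than in old rats and 1 lower in adult than in old rats. Over all probes these shares were 26.9%, 20.2% and 20.8%. The level of Cdh1 lay between 6.22 and 7.87 in pups (median 6.66). It was 6.18, 6.17, 6.77 and 6.52 in adult rats and 6.52, 6.46, 6.37 and 6.44 in old rats. The 3 ages overlapped, and no comparison was called (0.29 ± 0.16, 0.25 ± 0.16 and -0.04 ± 0.21). Cdh3, the P-cadherin of basal epithelial cells, was likewise not called in any comparison (0.31 ± 0.13, 0.35 ± 0.13 and 0.04 ± 0.17). Cdh2 lay between 3.38 and 4.47 in pups (median 4.03), and at 3.49, 3.45, 3.38 and 3.22 in adult rats. In old rats it was 3.08, 3.15, 3.1 and 3.18, below every pup and every adult rat. It was thus higher in newborn than in adult rats by 0.65 ± 0.08 (adjusted p = 5.19e-07) and than in old rats by 0.90 ± 0.08 (adjusted p = 3.74e-09), while adult minus old was 0.25 ± 0.11 (adjusted p = 0.0646). The Cdh2 probe had several spots on each array, 8 to 10 of them usable, and these varied by 2.3% to 7.86% on an array (coefficient of variation).

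Cdh15, the M-cadherin of muscle and its satellite cells, lay between 1.5 and 2.39 in pups (median 1.86), above all adult rats, which were at 1.02, 1.01, 0.99 and 1.24. Old rats were at 1.45, 1.80, 1.41 and 2.01, overlapping the pups. Newborn exceeded adult rats by 0.77 ± 0.14 (adjusted p = 3.3e-05), and adult minus old was -0.60 ± 0.17 (adjusted p = 0.00704). The call against old rats was lost without any of adult rats 13, 14 and 15 or old rats 18 and 20 (-0.59 to -0.49, adjusted p up to 0.0351), and with the 75th percentile as the centre (-0.51, adjusted p = 0.0178). Of the 9 measured muscle markers, 8 were higher in pups than in adult rats (26.9% of all probes) and 7 than in old rats (20.2%). Their summed intensity was 36.65 to 421.3 array medians in pups, 12.82 to 26.28 in adult rats and 47.61 to 74.35 in old rats, 6 of the 9 being above background on no old array, Acta1 and Myod1 among them, and Chrna1 on no array. Between adult and old rats, Myog was higher (2.06 ± 0.44) and Tnnc2 lower in adult rats (-1.83 ± 0.42), and the median change of the 9 was 0.02. Most of the summed intensity in adult and old rats was that of Tnnc2, at mean levels of 4.02 and 5.85. The part of muscle in the values of Cdh15 was not tested.

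Among the 10 type II cadherins, 3 were higher and 1 lower in newborn than in adult rats, beside 26.9% and 19.7% of all probes. In newborn against old rats 4 were higher and 1 lower, beside 20.2% and 23.1%. The last was Cdh22, whose probes are described below. Cdh6, a cadherin of developing kidney and nervous system, lay between 1.15 and 2.90 in pups (median 1.92). It was 0.60, 0.62, -0.43 and 0.15 in adult rats and -0.66, -1.70, -0.41 and -0.27 in old rats, all below the lowest pup. It was higher in newborn rats by 1.73 ± 0.27 against adult (adjusted p = 7.39e-06) and 2.73 ± 0.27 against old rats (adjusted p = 1.01e-08). Within the shared scan day, L1 exceeded the old rats by 3.06 ± 0.35.

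Cdh5, the VE-cadherin of endothelial junctions, lay between -1.04 and 0.12 in pups (median -0.37) with probe A_43_P19735. It was -0.92, -1.23, -1.45 and -1.96 in old rats, and above background on no adult array. Pups exceeded adult rats at least 4.18-fold (adjusted p = 2.88e-10), and old rats exceeded them at least 2.15-fold (adjusted p = 1.03e-05), the latter call being lost with normexp and quantile normalization together (adjusted p = 0.0121). These bounds set adult rats at the lowest signal that was well above background on each array. Newborn minus old was 0.96 ± 0.26 (adjusted p = 0.00356), a call lost without old rat 19 (0.94, adjusted p = 0.0135) or 20 (0.77, adjusted p = 0.032) and, within the shared scan day, with L1 alone (0.97 ± 0.34, adjusted p = 0.0232). The second probe, printed above, was above background on 14 newborn, 2 adult and no old arrays. It was at least 1.1-fold higher in newborn than in old rats (adjusted p = 0.0012) and not called against adult rats (0.69 ± 0.40), so the dip in adult rats was seen with 1 of the 2 probes.

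Of the 9 other endothelial markers measured, 6 were higher in pups than in adult rats (26.9% of all probes) and 5 than in old rats (20.2%). Emcn was lower in pups than in old rats (-0.43 ± 0.10), and Emcn and Cldn5 were lower in adult than in old rats. Their summed intensity was 80.85 to 186.5 array medians in pups, 52.61 to 57.52 in adult rats and 90.75 to 112.3 in old rats. Tek was above background on no array and Flt1 on no adult or old array. Cldn5, a tight junction protein of vessels, changed by 1.22 ± 0.21 for newborn minus adult and -1.68 ± 0.27 for adult minus old, and newborn minus old was not called (-0.47 ± 0.21). The part of the number of endothelial cells in the values of Cdh5 was not tested.

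Cdh11, a cadherin of osteoblasts and mesenchyme, was read by 4 probes. With the first, A_44_P339722, the level lay between 1.77 and 3.26 in pups (median 2.48). It was 2.96, 3.53, 2.80 and 3.58 in adult rats and 1.80, 0.64, 1.41 and 1.37 in old rats, without overlap of these 2 groups. Adult exceeded old rats by 1.92 ± 0.29 (adjusted p = 1.08e-05), with 1.87 and 2.06 from 2 other probes, while the fourth, above background on no old array, was at least 2.16-fold higher. All 4 were called. Newborn exceeded old rats by 1.16 ± 0.23 (adjusted p = 0.000143), with 1.18 and 1.24 from the same 2 probes and at least 1.93-fold from the fourth, also all called. Newborn minus adult was -0.76 ± 0.23 (adjusted p = 0.00643), called with 3 of the 4 probes, and lost without adult rat 14 (-0.66, adjusted p = 0.0378) or 16 (-0.64, adjusted p = 0.0417). Of 9 markers of bone and mesenchyme, 8 were higher in newborn than in old rats, beside 20.2% of all probes. In adult against old rats 7 were higher, beside 11.5% of all probes. Runx2 was lower in both comparisons (-0.69 ± 0.21 and -0.92 ± 0.27). The summed intensity of the 9 markers was 3318 to 8841 array medians in pups, 3022 to 5032 in adult rats and 655 to 1181 in old rats. Of them, Sp7 was above background on no old array. Ibsp, the bone sialoprotein, was higher in adult than in old rats by 4.06 ± 0.24. The part of bone in the values of Cdh11 was not tested.

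Of the remaining type II cadherins, Cdh22 is described below. Cdh7, Cdh8, Cdh10 and Cdh18 were above background on only some arrays, and Cdh9 and Cdh19 on none. Cdh7 was above background on 8 of the 19 newborn arrays, 2 of 8 adult and none of 8 old arrays, and was called in newborn minus old (adjusted p = 0.000147). Cdh8 was above background on 4 newborn arrays and no other, and was called in newborn minus adult (adjusted p = 0.00194). No fold is given for Cdh7 and Cdh8, since the bound was below 1. With a floor of 0.1, Cdh8 fell to 0.47 ± 0.32 and the call was lost. Cdh10 was above background on 13 newborn, 4 adult and 3 old arrays with its first probe A_44_P374883, and reached 1.68 in pups, but neither its 3 probes nor Cdh18 were called in any comparison.

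Cdh22, known from pituitary and brain, was the gene whose 2 probes differed most. With A_44_P116532 the level lay between 0.08 and 2.46 in pups (median 1.41), at 0.88, 0.81, 0.15 and 0.77 in adult rats and at 3.94, 4.04, 3.88 and 4.28 in old rats. All 4 old rats were above all other rats. The change was -2.64 ± 0.26 for newborn minus old (adjusted p = 7.62e-09) and -3.38 ± 0.33 for adult minus old (adjusted p = 2.09e-08). Within the shared scan day, L1 minus old was -1.94 ± 0.33. With A_44_P454259 old rats were at the other end. Pups lay between 1.17 and 4.08 (median 2.31), adult rats at -0.93, -0.39, -2.64 and -0.29 and old rats at -2.12, -4.17, -1.48 and -0.69. This probe was higher in newborn rats by 3.58 ± 0.47 against adult (adjusted p = 4.86e-07) and by 4.64 ± 0.47 against old rats (adjusted p = 1.13e-08).

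The positions of the 2 Cdh22 probes, 867 bases apart in the files, lie on chromosome 6 between the probes of Dlk1 and Rtl1, a pair of imprinted genes, and RefSeq has Cdh22 on another chromosome. This neighbourhood was looked at after the values of the 2 probes were seen. Of the 8 other probes placed between those genes, 4 were higher in newborn rats in both comparisons, by 3.43 to 4.56 against adult and 3.49 to 4.20 against old rats for 3 of them. The fourth was above background on 12 newborn arrays, 1 adult and no old array, and no fold is given for it. All 4 carried names of unassigned transcripts. Dlk1 itself was above background on every newborn array and on no adult or old array. Which transcript each of the 2 probes binds was not tested, so neither pattern of ages is assigned to Cdh22 here.

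**Figure D1:**
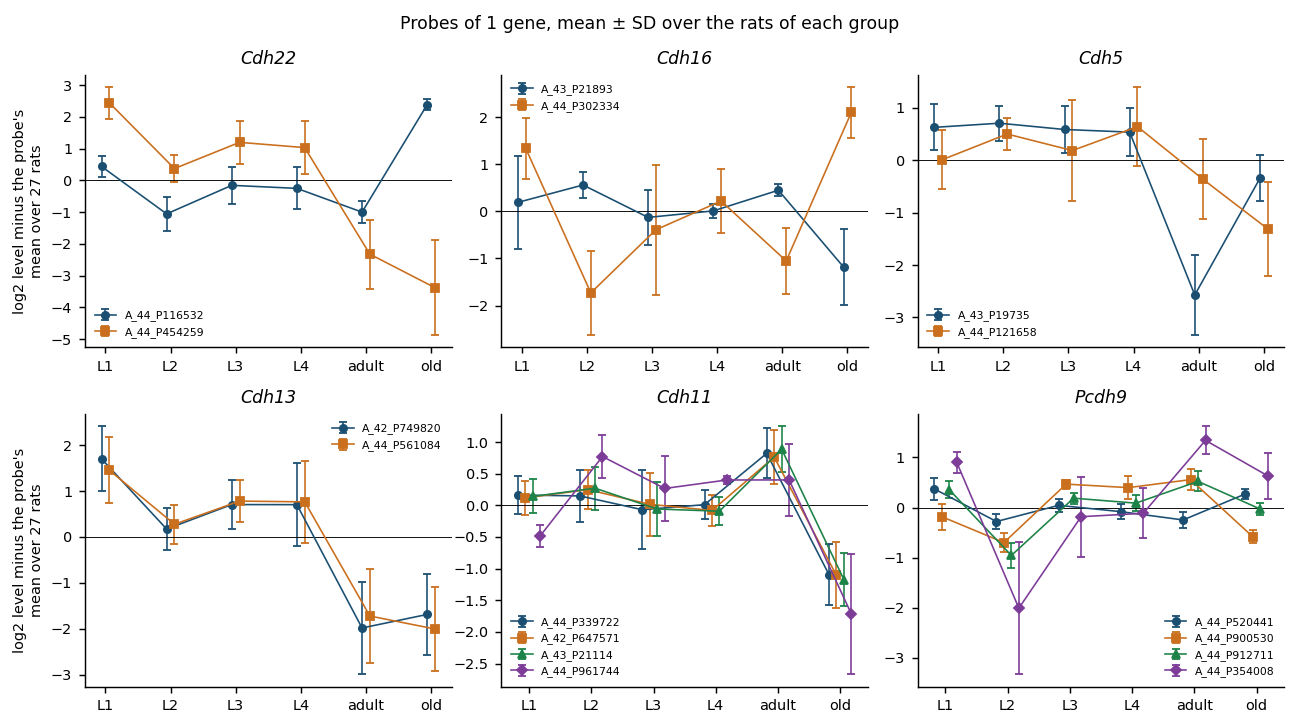
Level of each probe of 6 genes (y axis, log2, minus the probe's own mean over the 27 rats), as mean ± SD over the rats of L1 to L4, adult and old. The probes of Cdh13 and 3 of the 4 of Cdh11 run together, whereas those of Cdh22 and Cdh16 part in old rats, Cdh5 in adult rats and Pcdh9 in L1 and in old rats.

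Cdh13, the T-cadherin that is held to the membrane by a lipid anchor and binds adiponectin, was high in newborn rats with both probes. With A_42_P749820 the level lay between 2.73 and 5.51 in pups (median 3.88). It was 1.78, 1.72, -0.37 and 1.32 in adult rats and 1.73, 0.15, 1.54 and 2.20 in old rats. Every pup was above every adult and old rat, and the latter groups overlapped. The change was 2.81 ± 0.40 against adult (adjusted p = 1.99e-06) and 2.51 ± 0.40 against old rats (adjusted p = 1.15e-05), that is 6.99-fold and 5.7-fold. The second probe gave 2.54 ± 0.40 and 2.83 ± 0.40. Within the shared scan day, L1 exceeded the old rats by 3.39 ± 0.52.

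Cdh17, the liver-intestine cadherin, lay between -1.54 and 0.12 in pups (median -0.71) with probe A_43_P13004 and at -0.77, 0.14, 0.39 and 0.53 in adult rats. It was above background on all newborn and adult arrays and on no old array. Old rats were exceeded at least 3.08-fold by pups (adjusted p = 1.3e-07) and at least 5.11-fold by adult rats (adjusted p = 1.45e-07). Its second probe was above background on 2 adult arrays alone. Cdh16, the kidney cadherin, had probes with opposite calls. A_43_P21893 was above background on 6 newborn, 6 adult and no old arrays, and was at least 1.39-fold higher in adult than in old rats (adjusted p = 0.00155), a call lost with the scan day as a random block (adjusted p = 0.0125), with the 2 groups alone (adjusted p = 0.0113) and with the methods' test (adjusted p = 0.0213). A_44_P302334 was above background on 4 old arrays, 1 newborn and no adult array, and was at least 1.53-fold higher in old than in adult rats (adjusted p = 0.000171). Between newborn and old rats the first was at least 1.14-fold higher in newborn rats (adjusted p = 0.000663; without old rat 20, adjusted p = 0.0119), and the second lower (-2.24 ± 0.47, adjusted p = 0.0003). As both probes were near background, the direction for Cdh16 was not settled.

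Cdh23, which forms the tip links of hair cells together with Pcdh15, was the Cdh gene with the clearest rise after birth. Pups lay between 0.12 and 2.60 (median 0.97), adult rats at 3.08, 2.78, 2.89 and 2.93 and old rats at 3.22, 3.41, 3.14 and 3.57. No pup reached an adult or old rat, and each old rat exceeded each adult rat. Newborn minus adult was -1.84 ± 0.20 (adjusted p = 2.38e-08) and newborn minus old -2.26 ± 0.20 (adjusted p = 1.17e-09), while adult minus old was -0.42 ± 0.25 (adjusted p = 0.202). L1 alone gave -1.72 ± 0.25 against the old rats. Cdh26, a cadherin known from epithelia, lay between 4.13 and 5.01 in pups, at 4.79, 5.0, 5.12 and 5.29 in adult rats and at 5.34, 5.39, 5.36 and 5.46 in old rats. Newborn minus adult was -0.53 ± 0.14 (adjusted p = 0.002), a call lost without adult rat 16 (-0.45, adjusted p = 0.0176), and newborn minus old -0.87 ± 0.14 (adjusted p = 9.75e-06).

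**Figure D2:**
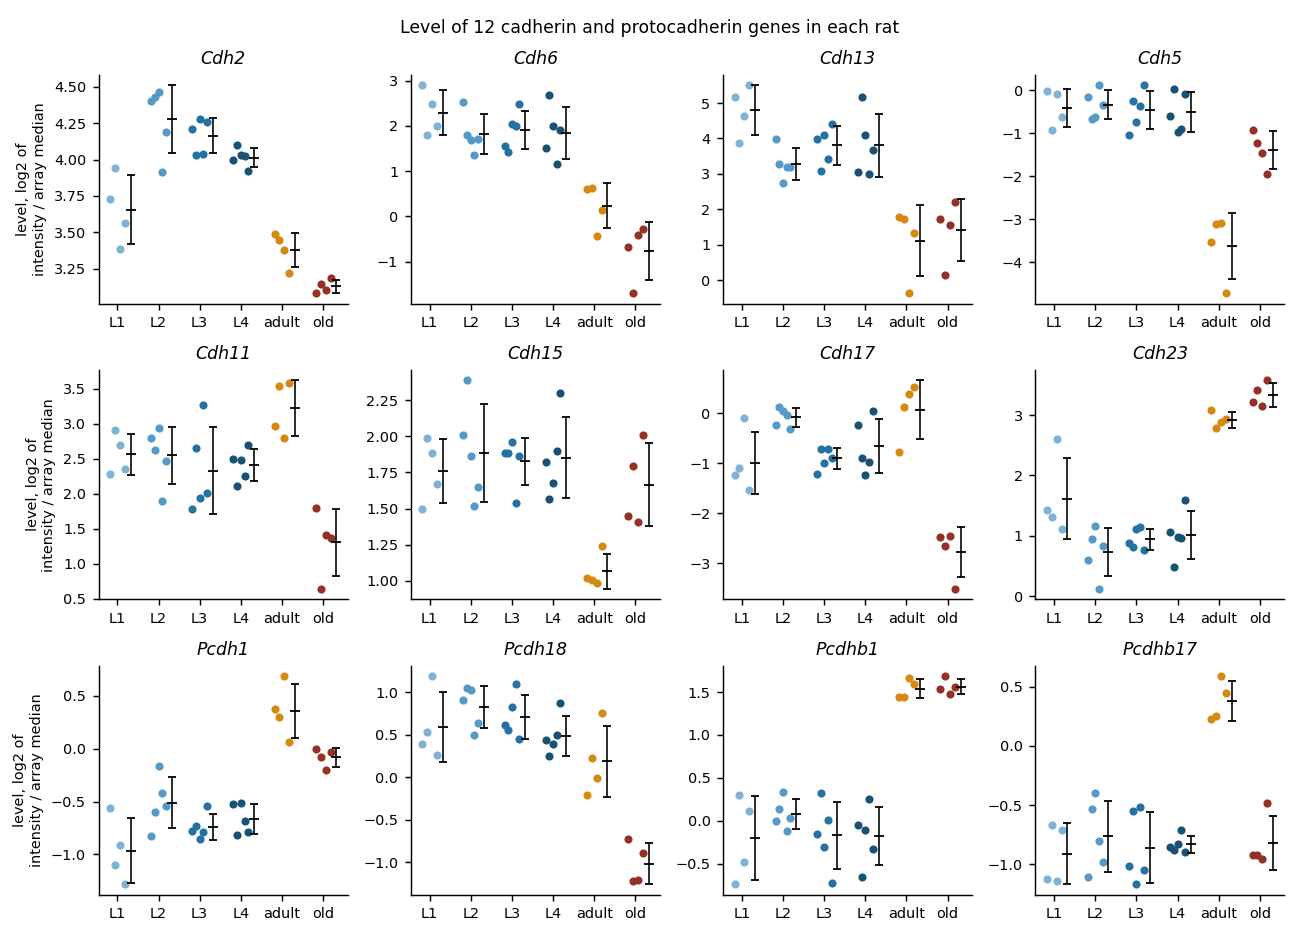
Level (y axis, log2 of intensity over the array median) of 12 genes in each rat, with mean ± SD beside the points, for L1 to L4, adult and old rats. Cdh6 and Cdh13 sat high in all 4 litters, Cdh23 and Pcdhb1 low in them, Cdh11, Cdh17 and Pcdh18 low in old rats and Pcdhb17 high in adult rats alone.

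The delta-1 protocadherins went in different directions. Pcdh1 lay between -1.28 and -0.16 in pups (median -0.73), at 0.38, 0.30, 0.69 and 0.07 in adult and at -0.01, -0.08, -0.21 and -0.03 in old rats. It was lower in newborn rats by -1.08 ± 0.12 against adult (adjusted p = 3.33e-08) and -0.64 ± 0.12 against old rats (adjusted p = 7.06e-05). Pcdh11x, on the X chromosome, was higher in newborn rats by 1.13 ± 0.22 (adjusted p = 0.000142) and 0.97 ± 0.22 (adjusted p = 0.000762), although pups spread from -1.08 to 1.0 and overlapped adult rats at -1.34 to -0.92 and old rats at -1.03 to -0.85. Its second probe, near background, was not called. Pcdh7 was not called in any comparison (0.25 ± 0.09, 0.24 ± 0.09 and -0.01 ± 0.12).

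The 4 probes of Pcdh9 fell apart by position. A_44_P520441 was lower in adult than in old rats by -0.52 ± 0.11 (adjusted p = 0.000481), with adult rats at 4.81, 4.67, 4.72 and 4.41 and old rats at 5.12, 5.28, 5.22 and 5.07. This call was lost with quantile normalization (-0.22, adjusted p = 0.129) and with normexp and quantile normalization together (-0.33, adjusted p = 0.0341). The 3 others, which the files place 905681 to 907309 bases away, were higher in adult rats, by 1.14 ± 0.13 (A_44_P900530, adjusted p = 3.21e-07), 0.55 ± 0.14 (A_44_P912711, adjusted p = 0.00254) and 0.71 ± 0.51 (A_44_P354008, not called). With A_44_P900530 adult rats lay at 2.18, 2.15, 2.07 and 1.73 and old rats at 0.90, 0.79, 0.80 and 1.07. Against adult rats these 3 were lower in newborn rats, by -0.56 ± 0.10, -0.60 ± 0.11 and -1.69 ± 0.40, all called, where A_44_P520441 gave 0.26 ± 0.09 and no call.

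Among the delta-2 protocadherins, Pcdh18 was the one that fell most with age. Pups lay between 0.25 and 1.19 (median 0.56), adult rats at -0.21, 0.22, -0.01 and 0.76 and old rats at -0.73, -1.22, -1.21 and -0.90. All old rats were below all others. Newborn minus old was 1.67 ± 0.16 (adjusted p = 8.25e-09) and adult minus old 1.21 ± 0.21 (adjusted p = 5.91e-05). Pcdh8 was also lower in old rats, by 0.63 ± 0.14 for newborn minus old (adjusted p = 0.000594) and 0.60 ± 0.18 for adult minus old (adjusted p = 0.00958), the second of which passed so narrowly that leaving out any of 19 rats lost it (0.55 to 0.66, adjusted p up to 0.0312). Pcdh19, an X-linked gene of female epilepsy, was lower in newborn than in old rats (-0.74 ± 0.13, adjusted p = 4.26e-05), with pups at 5.54 to 6.58 and old rats at 6.83, 6.92, 6.65 and 6.86. Pcdh17 was lower in newborn rats with A_44_P684740, by -0.66 ± 0.13 (adjusted p = 0.000132) and -0.56 ± 0.13 (adjusted p = 0.000785). Its second probe gave 0.44 ± 0.18 and -0.55 ± 0.18, neither called, and was lower in adult than in old rats (-0.99 ± 0.23, adjusted p = 0.00135).

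Pcdh20 was above background on 1 of the 35 arrays. Pcdh21, a cadherin-related protein known from photoreceptors and mitral cells, was picked after its values were seen, because its adult and old rats did not overlap. They lay at 9.31, 9.12, 9.08 and 9.03 and at 10.13, 10.49, 10.34 and 10.57, and pups spread from 9.11 to 11.65. No comparison was called (1.26 ± 0.43, 0.01 ± 0.43 and -1.25 ± 0.56). Over all pups, differences between litters included, the SD was 0.97, beside 0.12 in adult and 0.19 in old rats. The fit shares its estimate of the spread within each litter and age group over all of them.

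The 15 clustered beta genes were read by 17 probes, and their calls all had 1 direction in 2 comparisons. In newborn minus adult, 8 were lower, none higher and 7 not called, with a median change of -0.52, and the number lower was 5 to 11, with none higher, under the alternative settings. In adult minus old, 7 were higher, none lower and 8 not called, with a median of 0.43, and 5 to 10 were higher, with none lower, under the alternatives. The median over all probes was 0.10 and -0.14. Of all probes, 26.9% were higher and 19.7% lower in newborn minus adult, and 11.5% and 20.8% in adult minus old. In newborn minus old, 4 beta genes were higher, Pcdhb6 among them, and 2 lower, beside 20.2% and 23.1% of all probes. Since both former comparisons contain the adult rats, whose arrays were scanned on days of their own, adult age and scan day cannot be told apart here.

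Pcdhb17 showed this pattern in full. It lay at 0.23, 0.25, 0.59 and 0.44 in adult rats, between -1.17 and -0.40 in pups (median -0.85) and at -0.92, -0.92, -0.95 and -0.48 in old rats, so that all adult rats were above all others. The change was -1.22 ± 0.14 (adjusted p = 3.97e-08) and 1.20 ± 0.17 (adjusted p = 5.7e-06). Pcdhb14 and Pcdhb7 were called in the same 2 comparisons. Of the 17 probes, 3 were above both other ages in adult rats. Pcdhb1 was low in newborn rats alone, at -0.74 to 0.34 (median -0.05) against 1.44, 1.45, 1.66 and 1.60 in adult and 1.54, 1.69, 1.47 and 1.56 in old rats, a change of -1.66 ± 0.17 (adjusted p = 7.78e-09) and -1.68 ± 0.17 (adjusted p = 8.54e-09). Pcdhb5 was lower in newborn rats in both comparisons (-1.03 ± 0.12 and -0.60 ± 0.12), the second not within the shared scan day (-0.28 ± 0.15). Pcdhb15 was low in old rats alone, at -0.40, -0.47, -0.36 and -0.18 against 0.77, 0.65, 1.1 and 0.99 in adult rats and 0.07 to 1.03 in pups (adult minus old 1.23 ± 0.14, adjusted p = 3.04e-07). Pcdhb11 was above background on all 4 arrays of L1, on none of the other 15 newborn arrays, on 7 adult and on no old arrays. Pcdh3, the Pcdhb12 of RefSeq, was higher in adult than in old rats (0.36 ± 0.10, adjusted p = 0.0066), a call lost without any of 3 adult rats or old rat 19 (0.23 to 0.37, adjusted p up to 0.0387). It was also lost with the 2 groups alone (adjusted p = 0.0691) and with the methods' test (adjusted p = 0.0967). The same held with litter means, the slide or scan day as a random block, and normexp and quantile normalization together. Pcdhb13 was lower in newborn than in adult rats with both probes (-0.36 ± 0.08 and -0.64 ± 0.13).

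Of the 5 clustered gamma genes none was called in newborn minus adult. In adult minus old 3 were lower, beside 20.8% of all probes. Pcdhga2 lay at -0.56, -0.74, -0.70 and -0.74 in adult and at 0.34, 0.21, 0.16 and 0.23 in old rats, with pups at -0.97 to -0.10. The change was -0.92 ± 0.11 for adult minus old (adjusted p = 3.9e-07) and -0.83 ± 0.09 for newborn minus old (adjusted p = 1.85e-08). Pcdhga5 changed by -0.67 ± 0.13 and -0.41 ± 0.10, for adult minus old and newborn minus old. The former was not called with normexp and quantile normalization together (adjusted p = 0.157), the latter neither within the shared scan day (-0.27 ± 0.13, adjusted p = 0.105) nor with litter means (adjusted p = 0.0124), and the second Pcdhga5 probe, near background, gave neither call. Pcdhga11 was above background on 3 old arrays and no other, and was at least 1.32-fold higher in old than in adult rats (adjusted p = 0.000932). Pcdhgc3 was higher in newborn than in old rats (0.66 ± 0.12, adjusted p = 3.77e-05). Of the 3 alpha genes, Pcdha4 was lower in newborn than in old rats (-0.70 ± 0.18, adjusted p = 0.00252), and Pcdhac2 higher (0.40 ± 0.10, adjusted p = 0.00131), a call lost without old rat 17 (0.34, adjusted p = 0.0136) and within the shared scan day (0.08 ± 0.13). The second Pcdhac2 probe, 762 bases away, was higher in adult than in old rats by 1.29 ± 0.13 (adjusted p = 4.01e-08), where the first gave 0.12 ± 0.13.

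**Figure D3:**
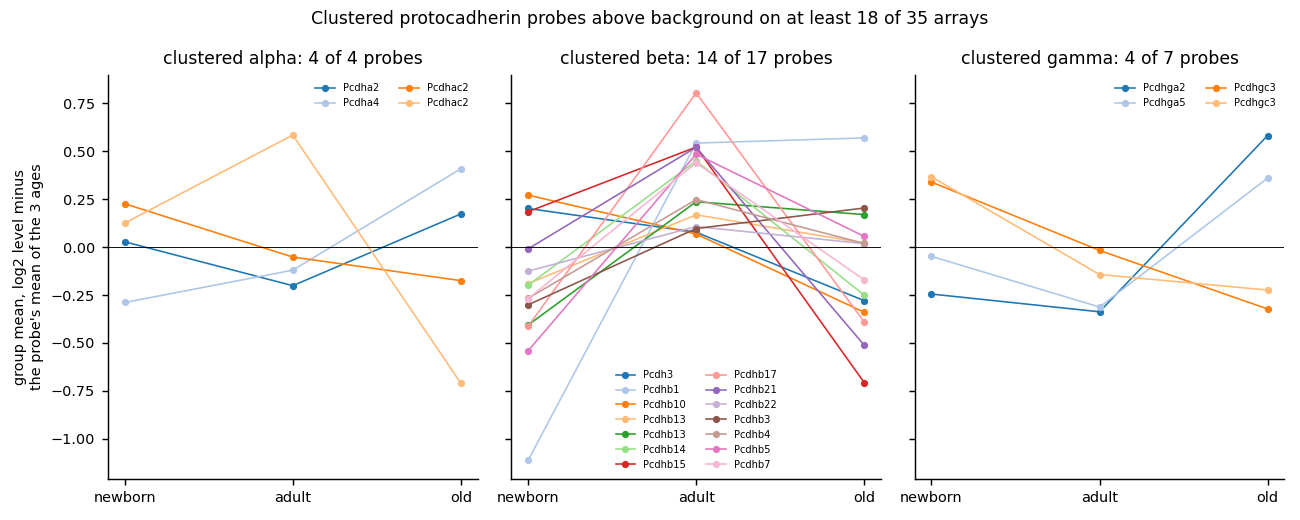
Mean level of each clustered protocadherin probe in newborn, adult and old rats (y axis, log2, minus the probe's mean over the 3 ages), for the 4 alpha, 14 of 17 beta and 4 of 7 gamma probes that were above background on at least 18 of the 35 arrays. Most beta lines peak in adult rats, whereas Pcdhga2 and Pcdhga5 are lowest there and highest in old rats.

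Over the 16 genes with more than 1 probe, 21 pairs of probes could be set side by side, each pair being the probe with the highest mean level and another of the gene. Both probes had the same call in 4 pairs for newborn minus adult, 6 for newborn minus old and 4 for adult minus old. They had opposite calls in 0, 2 and 3 pairs, which were those of Cdh22 and Cdh16 in the second comparison, and of Cdh16 and 2 pairs of Pcdh9 in the third. In the other pairs 1 or neither probe was called. The 2 arrays of 1 rat differed by a median of 0.19 over the 54 probes expressed in adult rats and 0.16 over the 48 expressed in old rats.

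The litters differed for 18 probes (24.3%) of 13 genes by the highest probe, where 22.8% of all probes differed (moderated F test, adjusted p below 0.01). All 4 Pcdh9 probes were among them. With A_44_P900530 L1 had a mean of 1.29 ± 0.26 (SD, n = 4), L2 of 0.78 ± 0.19, L3 of 1.94 ± 0.09 and L4 of 1.87 ± 0.22 (n = 5 each; limma adjusted p = 1.68e-07). A_44_P520441 was highest in L1, at 5.27 ± 0.23, and lowest in L2, at 4.62 ± 0.16 (limma adjusted p = 0.000285). L2 was the lowest litter for every Pcdh9 probe. Pcdh3 had means of 1.29 ± 0.04, 2.14 ± 0.13, 1.89 ± 0.09 and 1.61 ± 0.13 from L1 to L4 (limma adjusted p = 2.29e-06), and Cdh2 3.66 ± 0.24, 4.28 ± 0.23, 4.16 ± 0.12 and 4.01 ± 0.07 (limma adjusted p = 0.000288). Pcdh17 was also lowest in L1, at 4.54 ± 0.36, beside 5.19 to 5.47 in the others (limma adjusted p = 0.000433). Cdh7 was above background on all 4 arrays of L1 and on none of L2.

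L1 was scanned on its own slide and day, apart from the other litters. Without L1, 4 probes differed between litters, namely Pcdh3 and 3 of the Pcdh9 probes. With the slide as a random block, 7 did. Over all 41012 probes, 2367 differed without L1 and 5013 with the slide as a random block, in place of 9333. For L1, litter and scan day cannot be told apart. Among the pups alone, the difference between L2 and L3 in Pcdh9 A_44_P900530 spanned 1.17 on the log2 scale, beside a difference of 1.14 between adult and old rats.

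**Figure D4:**
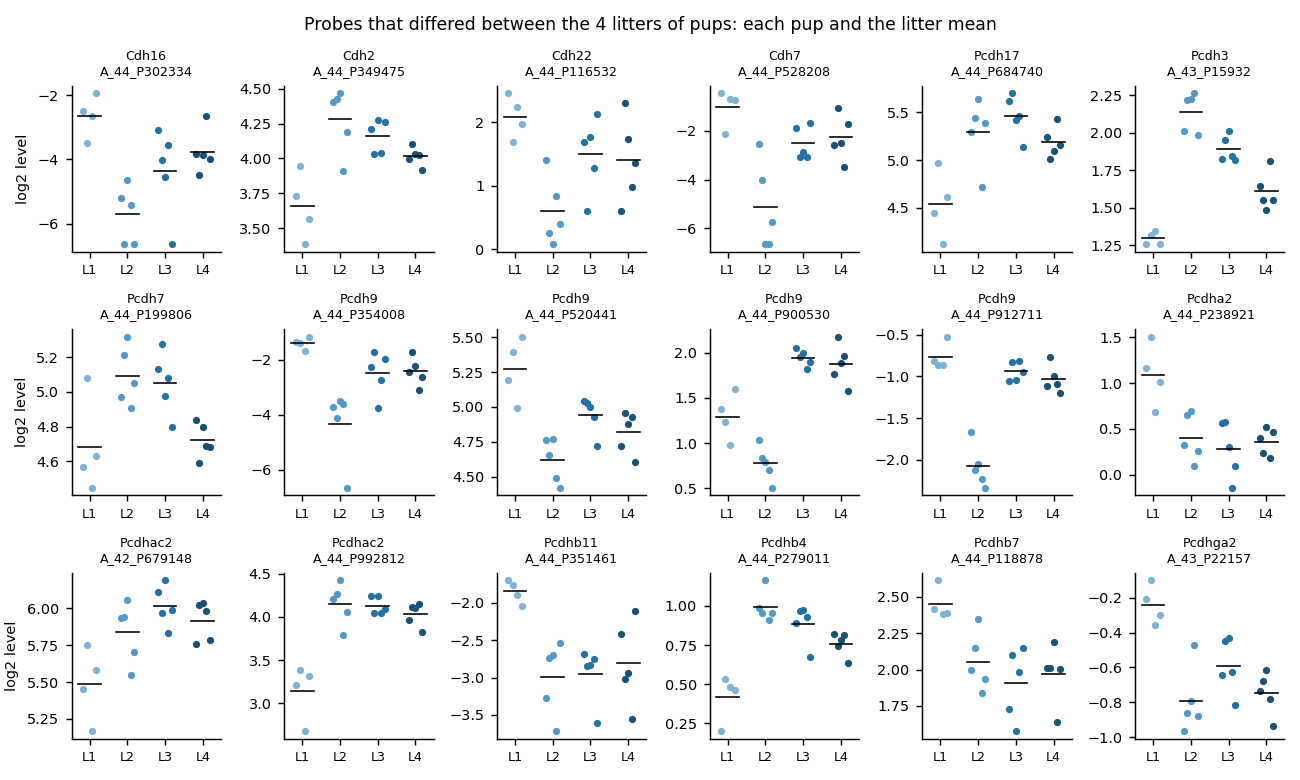
Level (y axis, log2) of the 18 probes that differed between litters, with each pup as a point and the litter mean as a line. L1 stands apart in most panels, and L2 is lowest for all 4 Pcdh9 probes.

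The partners of cadherins were taken from lists of known genes. Of all probes, 26.9% were higher and 19.7% lower in newborn than in adult rats. These shares were 20.2% and 23.1% for newborn against old rats, and 11.5% and 20.8% for adult against old rats. Of 13 measured catenins and plaque proteins, 3 were higher and 3 lower in newborn than in adult rats, 2 and 5 in newborn than in old rats and 2 and 3 in adult than in old rats. Ctnnb1, or beta-catenin, was lower in newborn than in adult rats (-0.78 ± 0.12) and higher in adult than in old rats (0.65 ± 0.15). Ctnnd1, the p120-catenin that holds cadherins at the membrane, was higher in newborn rats in both comparisons (1.01 ± 0.10 and 0.51 ± 0.10). Ctnnd2 (-0.63 ± 0.11 and -0.87 ± 0.11) and Catna1 (-0.52 ± 0.10 and -0.47 ± 0.10) were lower in newborn rats in both. Of 5 desmosomal cadherins, Dsc2 was higher in newborn rats in both comparisons (0.59 ± 0.18 and 0.65 ± 0.18), Dsg2 was higher in adult rats than in both others, and Dsg4 was above background on no array.

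Among 5 large cadherins, Dchs1, the partner of Fat proteins in planar polarity, was higher in newborn rats by 2.23 ± 0.12 (adjusted p = 1.3e-13) and 2.52 ± 0.12 (adjusted p = 2.6e-14). Fat3 was lower in old rats than at both other ages, by 1.96 ± 0.22 for newborn minus old and 1.57 ± 0.28 for adult minus old. Of 4 nectins and relatives, Pvrl1, Pvrl2 and Pvr were higher in pups than in adult rats, and Pvrl1 alone than in old rats. Of 7 proteases that cut cadherins, 1 was higher and 2 lower in newborn than in adult rats, and none higher and 3 lower than in old rats. Ncstn, a subunit of gamma-secretase, was lower in newborn than in adult rats by -1.25 ± 0.12.

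All 7 measured transcription factors known to repress E-cadherin were higher in pups than in adult rats, with a median change of 1.35 beside 0.10 over all probes, and 6 of 7 were higher in newborn than in old rats, with a median of 1.20. Snai1 and Zfhx1b, or Zeb2, were higher in newborn rats in both comparisons, at 1.35 ± 0.17 and 0.70 ± 0.17, and 1.54 ± 0.29 and 1.55 ± 0.29. The exception was Twist2 in newborn minus old (0.06 ± 0.29). Cdh1 itself was not called in either comparison (0.29 ± 0.16 and 0.25 ± 0.16). A probe named Sip1, an older name of both Zeb2 and Gemin2, carries the accession of Gemin2 and was not counted.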

How the data were processed

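Olfactory epithelium RNA of 19 pups, 4 adult and 4 old rats was labelled with Cy3 and hybridised to 35 Agilent arrays. The authors scanned them with Feature Extraction (9.5.1.1 for adult arrays, 9.5.3.1 for the others) and normalized them in GeneSpring, and deposited background-subtracted intensity values per spot with flags for signal above background, and a matrix of processed ratio values, each intensity over the median of its array and then over a constant per probe, used as an alternative. The array number limits the precision. From the deposited intensity, outlier spots were left out, spots of a probe averaged and each array divided by its median, floored at 0.01, before log2. The 2 arrays of a rat were averaged. limma 3.58.1 (R 4.3.3, intensity trend) fitted 6 groups of 27 rats over all probes, with Benjamini-Hochberg adjustment. The methods' threshold of 5-fold was a second count. Counts and medians describe lists, without a test. The fit was tested on simulated data. Named genes were the 6 largest called changes per comparison and direction, a list of well-known members, the clustered probe of highest mean level in each cluster and the 4 genes with the smallest litter p, and other names are those of calls described by group. Members and lists were chosen with earlier results of these data known. The labels give litters but not the age of each. The p-values measure the spread between these rats within a litter or age group, and leave out the spread between litters. Alternatives were another centring, normalization, background correction, floor, filter, test, block, the authors' matrix, other probes of a gene and leaving out each rat.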

Additional observations from a re-analysis of the deposited data

Results flagged for a closer look

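With 1 probe a gene over the 6 groups, 8 of 182 sets of rats (4.4%) held a rat whose gap to the nearest other exceeded Dixon's 95% critical value, and chance flags about 1 in 20. Old rat 20 was the highest old rat for 3 of them, Pcdh8 at 3.56 (others 3.13 to 3.21), Pcdhb17 at -0.48 (others -0.95 to -0.92) and Pcdhb5 at 3.30 (others 2.82 to 2.88). Cdh15 was lowest in pup 29 of L3, at 1.54, and highest in adult rat 16, at 1.24. Cdh22, with A_44_P116532, was lowest in adult rat 15, at 0.15. Pcdhb13 was highest in pup 10 of L1, at 3.09, and lowest in pup 34 of L4, at 2.41.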

How the results depend on the processing

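Leaving out each rat gave 9 to 12 probes higher and 18 to 23 lower in newborn than in adult rats, 24 to 27 and 13 to 17 in newborn than in old rats, and 15 to 21 and 8 to 10 in adult than in old rats. With litter means as the newborn replicates, 13 probes were lower in newborn than in adult rats, in place of 21. That fit had fewer newborn samples, and took in the spread between litters. Named genes lost 11 calls in it. For newborn minus adult these included Cdh11, Pcdhb11 and Pcdhb13. For newborn minus old they included Cdh5, Cdh7, Pcdh3, Pcdh17, Pcdhac2, Pcdhga5 and Pcdhga11. L1 against old rats, within 1 scan day, gave 9 lower in place of 14, of which 8 were among the 14, and 19 of the 25 higher were called again. With normexp background correction and quantile normalization together, 5 were lower in adult than in old rats, in place of 9, beside 23 higher. Over all probes that setting called 6054 lower, in place of 8530, and 6598 higher, in place of 4695. Litters differed in 4 probes without L1 and in 7 with the slide as a random block, in place of 18. Over all 41012 probes these counts were 2367 and 5013, in place of 9333. With a signal counted as positive and significant alone, L1 had 1 probe not expressed, L2 3, L3 2, L4 2, adult rats 3 and old rats 4. The cause of these differences was not tested.

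Another probe of the gene turned the direction of Cdh16 (newborn minus old -2.24, adult minus old -3.16), Cdh22 (4.64 and 1.06), Cdh5 (adult minus old 0.95), Pcdh17 (newborn minus adult 0.44, adult minus old -0.99), Pcdhac2 (newborn minus adult -0.46) and Pcdh9 (newborn minus adult -1.69, -0.56 and -0.60, newborn minus old 0.58, adult minus old 0.71, 1.14 and 0.55). Pcdh7, not called, was called higher in adult than in old rats with normexp and quantile normalization together (0.38). Over the 117 changes of named genes, 1626 values under other processing gave 59 lost calls, 44 new ones and no called change that turned, and 3159 values without a rat 35, 34 and 0. Uncalled changes turned their sign 45 times, in 20 results. No paired analysis was possible because the groups share no replicate numbers. Signal over background limits Cdh7, Cdh8, Cdh10, Cdh16 and Pcdhga11.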
